A study of Mus musculus with 6 samples.

Results

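Salivary proteins are packed into granules that wait under the apical membrane of the gland cell and are released when a secretory signal arrives. The expression of 10 genes for this last step was read from the submandibular glands of female mice: Rab3d, Rab27a, Rab27b, Vamp2, Vamp8, Stx3, Snap23, Stxbp2, Sytl2 and Unc13b. They were taken by name from the 43280 rows of the unfiltered count table, each matched exactly 1 row, and all 10 had enough counts to be tested. Of the 6 libraries, 3 carry the label WT (wild type) and 3 the label DKO, and they are called WT and DKO libraries here. DKO stands for mice lacking working copies of both Hs3st3a1 and Hs3st3b1, which encode heparan sulfate 3-O-sulfotransferases. The study describes the mice as adults on a C57BL/6 background, with a frameshift deletion in exon 1 of Hs3st3a1 made by zinc finger nucleases and a LacZ cassette in Hs3st3b1 on the same allele, compared with wild type littermates. The loss is in every cell of the animal, several founder lines were made and the labels do not say which one gave these glands, and each library is whole gland RNA of all cell types.

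Regulated exocytosis brings a granule to the plasma membrane, tethers it, primes it and fuses the 2 membranes. Small GTPases of the Rab family (Rab3d, Rab27a, Rab27b) mark the granule and recruit effectors such as Sytl2. Unc13b, a member of the Munc13 family, primes the fusion machinery. Fusion itself is driven by SNARE proteins, with Vamp2 or Vamp8 on the granule pairing with Stx3 and Snap23 on the target membrane, and Stxbp2 (Munc18-2) binding the syntaxin. Vamp8, Snap23, Stx3, Rab3d and Rab27b are known from exocrine acinar cells, where they take part in the release of digestive or salivary proteins.

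Depth and composition set what could be seen. Total counts ran from 23674258 to 29611975 per library, and the 10 most abundant rows held 57.9% to 61.9% of them in the WT libraries and 62.6% to 66.2% in the DKO libraries. Counts of the targeted genes did not separate the groups, with Hs3st3b1 at 173, 203 and 261 counts in WT 1, 4 and 5 and 255, 120 and 189 in DKO 1, 4 and 5, and Hs3st3a1 between 8 and 15 counts in each library, so these counts do not check the labels, on which every direction given here rests. By quantitative PCR the study found neither gene expressed in adult DKO glands of either sex. Why these counts differ from that result was not tested. At the threshold given below, 4 of 10 listed acinar marker genes rose (Mucl1, Agt, Agr2 and Aqp5) and 0 fell. Over all rows tested, 1.02% rose and 1.88% fell, the background for each count of markers in this paragraph. The summed level of the 10 acinar genes was 8378594 to 10202544 normalized counts in the WT libraries and 10672102 to 13156169.5 in the DKO libraries. The single row Spt1 held 95.5% of it, and Spt1 overlapped between the groups (10113751 in WT 4, 9948667 in DKO 1, DESeq2 adjusted p = 0.0758). Mucl1 ran from 62.6 to 238 normalized counts in the WT libraries and from 632646 to 870779 in the DKO libraries. Of 10 myoepithelial markers 9 were tested and 8 fell, with sums of 11449 to 12315 normalized counts in the WT libraries and 6359 to 8267 in the DKO libraries. Of 10 granular duct markers 8 fell, while the summed level of the 10, mostly Klk1, overlapped between the groups. Ren1, which was not called, differed widely within both groups. It had normalized counts of 47169, 48304 and 83.3 in WT 1, 4 and 5 and 113, 12505 and 23570 in DKO 1, 4 and 5. Markers of T and NK cells (4 of 8 fell) summed to 276, 66.5 and 171 normalized counts in WT 1, 4 and 5, against 30.0 to 43.6 in the DKO libraries. In whole gland RNA, fewer cells of a type and less RNA per cell cannot be told apart.

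A normalized count here is a count divided by the size factor of its library (DESeq2 median of ratios), and an adjusted p-value under 0.05 over all rows was the threshold. Of the 10 genes, 1 rose in the DKO libraries, Rab3d, 0 fell and 9 did not pass the threshold. Over all 18606 rows tested, 2.90% passed it (1.02% higher and 1.88% lower in DKO), as did 3.81% of the rows with a mean of at least 100 normalized counts, as all members but Sytl2 had. The median log2 fold change of the 10 was 0.015, beside 0.00108 for all rows. The 2 groups did not overlap in 4 of the 10, Rab3d above and Unc13b, Snap23 and Sytl2 below, against 20.3% of all rows tested (9.85% above and 10.5% below) and 23.5% of the abundant ones. An unadjusted p under 0.05 was reached by 3 of the 10, beside 12.2% of all rows and 15.5% of the abundant ones. The tests and the scale mattered. Under edgeR 0 members were called (2 had an unadjusted p under 0.05), beside 0.0537% of all rows called. Under limma-voom 0 were called (3 unadjusted), beside 0.0376%. Those shares are of adjusted calls, and the share of all rows with an unadjusted p under 0.05 was counted only for DESeq2. With total counts as size factors 2 members were called, both lower, beside 7.90% of all rows (7.56% lower and 0.333% higher). As CPM (counts scaled to a common library total) the groups did not overlap in 6 members, against 29.7% of all rows. Of these, Rab3d lay above (1.90% of all rows did) and Rab27a, Snap23, Stxbp2, Sytl2 and Unc13b below (27.8%).

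**Figure D1:**
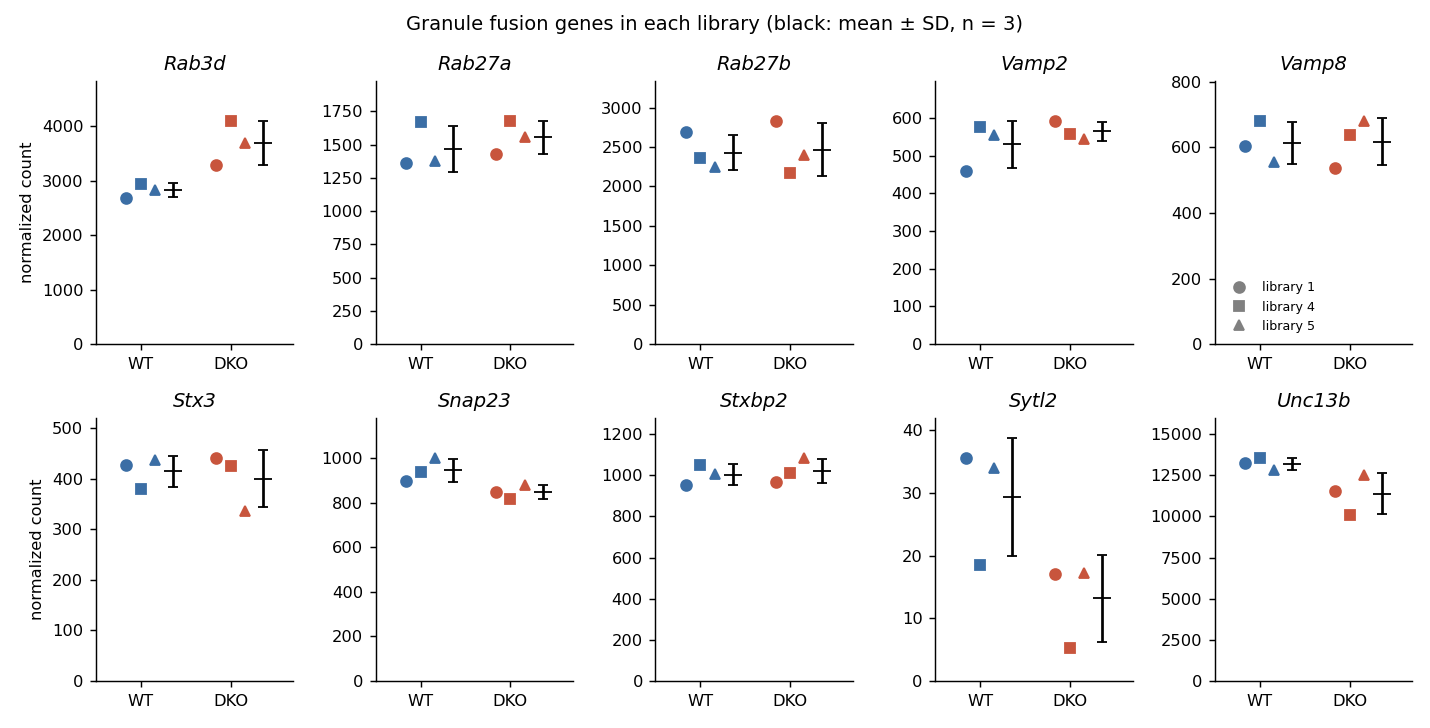
Normalized counts (vertical axes, starting at 0) of the 10 genes in each of the 3 WT (blue) and 3 DKO (red) libraries, with the mean ± SD of each group in black. The DKO points of Rab3d lie above all WT points, those of Unc13b, Snap23 and Sytl2 lie below them, and the groups overlap in the other 6 genes.

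The promoters of the gene that passed the test and of the member with the most counts, whose DKO libraries were lower, are shown as the 250 bases before the RefSeq start site on GRCm38.p6. Capitals mark the E-box letters CANNTG and the GC box GGGCGG or its reverse complement. E-boxes are the sites of basic helix-loop-helix factors, among them Bhlha15 (MIST1), a factor of secretory cells known to act on Rab3d and Rab26 in the stomach.
Rab3d, chr9:21918184-21918433, minus strand: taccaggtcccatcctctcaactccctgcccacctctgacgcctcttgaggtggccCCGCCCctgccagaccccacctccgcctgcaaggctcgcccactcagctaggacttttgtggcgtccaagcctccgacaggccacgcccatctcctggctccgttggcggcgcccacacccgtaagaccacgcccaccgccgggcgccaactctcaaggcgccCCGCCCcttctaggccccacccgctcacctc
Unc13b, chr4:43058703-43058952, plus strand: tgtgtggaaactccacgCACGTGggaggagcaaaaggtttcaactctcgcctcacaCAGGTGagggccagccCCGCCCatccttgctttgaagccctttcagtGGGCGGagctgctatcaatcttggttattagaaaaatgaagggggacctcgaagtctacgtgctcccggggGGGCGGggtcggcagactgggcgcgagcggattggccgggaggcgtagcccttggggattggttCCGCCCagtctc
The window of Rab3d was 69.2% G or C, with 0 matches to CANNTG and 2 to GGGCGG on either strand. That of Unc13b was 60.8% G or C, with 2 and 4 matches. The median over 32544 RefSeq promoter windows of this length was 52.4% G or C, 66.2% of them held CANNTG and 33.0% held GGGCGG. RefSeq windows were matched for 7 of the 10 genes, 8 windows in all, of which 5 held CANNTG and 3 held GGGCGG. These letters are a description of the windows and not sites of binding.

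The Rab GTPases come first in the order of events. Rab3d (chromosome 9, 21907491 to 21918192, minus strand) encodes the Rab3 form of exocrine granules. It had 2693, 2947 and 2831 normalized counts in the libraries WT 1, 4 and 5, and 3282, 4094 and 3695 in DKO 1, 4 and 5. All 3 DKO libraries lay above all WT libraries, and DKO 4 was the highest. The mean rose from 2824 ± 127 to 3690.4 ± 406 (SD, n = 3), a gain of 30.7% (log2 fold change 0.39 ± 0.11 SE and adjusted p = 0.0163 by DESeq2), with a 95% interval from 13.1% to 51.0%. The call did not hold under edgeR's quasi-likelihood test (adjusted p = 0.181) or limma-voom (0.201), and without WT 1, WT 5, DKO 4 or DKO 5 the DESeq2 adjusted p was 0.213, 0.156, 0.0767 and 0.133, with log2 fold changes from 0.30 to 0.47 whichever library was left out.

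Rab3d also depended on the scale. As a share of all counts it was 115, 112 and 116 CPM in WT 1, 4 and 5 and 122, 132 and 124 in DKO 1, 4 and 5. The groups stayed apart in the same direction, with a smaller gap. With total counts as size factors its log2 fold change was 0.15 (DESeq2 adjusted p = 0.341), in a fit where the median of all rows was -0.23. The size factors, which follow the typical gene, and the total counts, of which a few secretory rows hold most, differ by this shift. Of the 10 listed acinar markers, 4 rose in the same libraries, as given above, and the others did not pass the threshold. The part of acinar cells in the change of Rab3d was not tested.

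The 3 rows whose libraries followed Rab3d most closely, by the smallest root mean square difference of log2 normalized counts (each gene centred on its own mean) over the 6 libraries among 9897 rows with a mean of at least 100 normalized counts, were Gorasp2 (0.0235), Ring1 (0.0262) and Inpp5b (0.0272). Gorasp2 encodes a Golgi stacking protein, Ring1 a Polycomb subunit and Inpp5b an inositol polyphosphate phosphatase. Gorasp2 ran from 1719.9 to 1951 normalized counts in the WT libraries and from 2178 to 2734 in the DKO libraries. The likeness is over 6 libraries and was searched for after the change of Rab3d was known.

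Rab27a (chromosome 9, 73044854 to 73097629, plus strand) and Rab27b (chromosome 18, 69979131 to 70141605, minus strand) encode a pair of closely related GTPases that dock granules at the membrane. Rab27a had 1363, 1669.8 and 1378 normalized counts in the libraries WT 1, 4 and 5, and 1427, 1677 and 1559.9 in DKO 1, 4 and 5. WT 4 and DKO 4 were its highest libraries and the groups overlapped (log2 fold change 0.080 ± 0.12 SE and adjusted p = 0.881 by DESeq2). Its 95% interval ran from -10.1% to 24.4%. Rab27b had normalized counts of 2685, 2358 and 2247 in the WT libraries and 2827, 2165 and 2397 in the DKO libraries. Here WT 1 and DKO 1 were the highest of their groups, the reverse of Rab27a, and again the groups overlapped (log2 fold change 0.020 ± 0.12 SE and adjusted p = 0.978 by DESeq2, 95% interval from -14.3% to 20.0%). A gain in either of the size estimated for Rab3d, 30.7%, lies outside both intervals. The interval of Rab3d itself, from 13.1% to 51.0%, overlaps both. With total counts as size factors both log2 fold changes were negative, -0.15 and -0.21, close to the shift of all rows.

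Ratios between genes of one library do not depend on the size factors, and levels are set side by side only per kilobase of annotated exon. Per length, Rab27b stood at 0.607 ± 0.102 of Rab27a in the WT libraries and 0.582 ± 0.127 in the DKO libraries (SD, n = 3; exact permutation test on log2 ratios, two-sided p = 0.8, adjusted over 3 ratios 0.8). The ratio of Rab3d to Rab27b was 2.55, 3.18 and 3.21 in WT 1, 4 and 5, and 2.95, 4.81 and 3.92 in DKO 1, 4 and 5. DKO 1 lay inside the WT range, so the groups overlapped (exact permutation p = 0.3, adjusted 0.8, and 0.1 is the smallest p that 3 against 3 libraries allow). The test could not have passed 0.05 in this design. The log2 difference of the ratio was 0.37, and it stayed between 0.20 and 0.55 with any 1 library left out.

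Among priming and tethering factors, Unc13b stood out by its level. This gene (chromosome 4, 43058953 to 43264871, plus strand), which encodes Munc13-2, took 13392, 13867 and 14331 counts in WT 1, 4 and 5 and 12164, 9664 and 10874 in DKO 1, 4 and 5, which put it at rank 55 of all rows tested by mean count, before any allowance for its long transcripts. These gave normalized counts of 13253, 13565 and 12836 in the WT libraries and 11541, 10101 and 12537 in the DKO libraries. All DKO libraries lay below all WT libraries, and DKO 4 was the lowest. The coefficient of variation was 2.77% over the WT libraries and 10.8% over the DKO libraries. The mean was 13218 ± 366 in WT and 11393 ± 1225 in DKO (SD, n = 3), a difference of -13.8% with a 95% interval from -24.7% to -1.28%, and it did not pass the threshold over all rows (log2 fold change -0.21 ± 0.10 SE and adjusted p = 0.286 by DESeq2; unadjusted p = 0.0319). With total counts as size factors it did (-0.45, DESeq2 adjusted p = 0.00806), in a fit that called 7.56% of all rows lower. Its log2 fold change was negative under every alternative fit and with each library left out, and without DKO 4 it was -0.14.

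**Figure D2:**
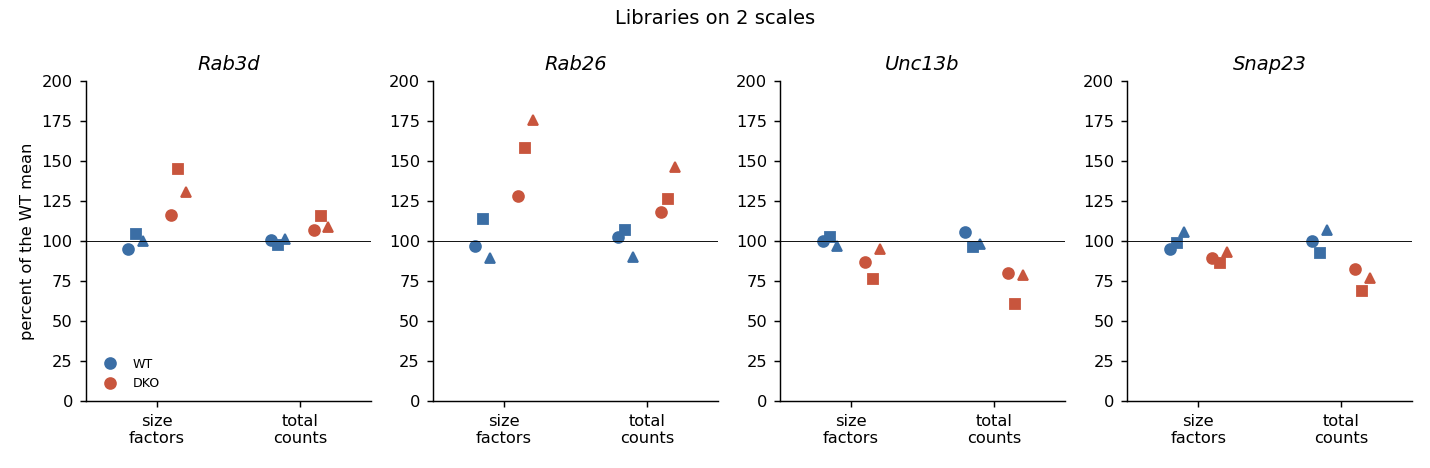
Level of Rab3d, Rab26, Unc13b and Snap23 in each library as a percent of the WT mean (vertical axis, from 0), once scaled by size factors and once by total counts, with WT in blue and DKO in red. On both scales the DKO libraries of Rab3d and Rab26 lie above the WT libraries and those of Unc13b and Snap23 below, and the total counts move all DKO points down.

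The other Munc13 genes were scarce. Per kilobase of exon, Unc13b had 581 ± 16.1 normalized counts in the WT libraries (SD, n = 3), Unc13d (Munc13-4, the form of blood cell granules) 10.5 ± 4.86 and Unc13a, a neuronal form, 0.609 ± 0.220. Unc13d had normalized counts of 69.3, 24.5 and 53.7 in the WT libraries and 22.8, 20.9 and 20.8 in the DKO libraries, with WT 1 and WT 5 far above the rest (log2 fold change -1.19 ± 0.45 SE and adjusted p = 0.124 by DESeq2). Those are the libraries in which the T and NK cell markers were highest, and the part of blood cells in this difference was not tested.

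Sytl2 (chromosome 7, 90302252 to 90410719, plus strand), the synaptotagmin-like protein that binds Rab27, was near the floor of detection. It had 36, 19 and 38 counts in WT 1, 4 and 5 and 18, 5 and 15 in DKO 1, 4 and 5. The groups did not overlap in normalized counts, though WT 4 (18.6) and DKO 5 (17.3) were close. The difference did not pass the threshold (log2 fold change -1.16 ± 0.55 SE and adjusted p = 0.308 by DESeq2), and its 95% interval, from -78.8% to -4.98%, is too wide to fix its size. The log2 fold change ran from -1.40 to -0.78 with 1 library left out.

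Other Rab27 effectors of the same family were far more abundant per length. Sytl1 had 349 ± 33.6, Sytl5 193 ± 16.5, Sytl3 55.2 ± 9.46 and Sytl4 43.1 ± 5.49 normalized counts per kilobase in the WT libraries, against 2.11 ± 0.675 for Sytl2 (SD, n = 3). The calls among them went both ways. Sytl3 rose, with normalized counts of 227, 319.9 and 292 in the WT libraries and 376, 434 and 435 in the DKO libraries (log2 fold change 0.57 ± 0.17 SE and adjusted p = 0.0254 by DESeq2), and no DKO library reached down to a WT one. Sytl5 fell, with normalized counts of 406, 442 and 482 in the WT libraries and 287, 347 and 314 in the DKO libraries (log2 fold change -0.49 ± 0.14 SE and adjusted p = 0.0296 by DESeq2), again without overlap. Sytl1 did not pass (log2 fold change 0.36 ± 0.14 SE and adjusted p = 0.128 by DESeq2), and Sytl4 had a log2 fold change of 0.0062. Neither call held under edgeR (adjusted p = 0.153 and 0.147) or with the replicate block (0.0846 and 0.188).

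The groups overlapped in both SNAREs of the granule side. Vamp2 (chromosome 11, 69088490 to 69092384, plus strand) had 458, 576 and 554 normalized counts in the libraries WT 1, 4 and 5, and 591, 556 and 544 in DKO 1, 4 and 5. Vamp8 (chromosome 6, 72385223 to 72390703, minus strand), the form tied to regulated release in exocrine cells, had normalized counts of 606, 679.8 and 554 in the WT libraries and 537, 638 and 679 in the DKO libraries. In both genes the libraries of the groups were interleaved. The test gave log2 fold change 0.090 ± 0.13 SE and adjusted p = 0.878 by DESeq2 for Vamp2, with a 95% interval from -11.1% to 27.6%. For Vamp8 it gave log2 fold change 0.0099 ± 0.14 SE and adjusted p = 0.992 by DESeq2, with an interval from -16.6% to 21.6%. Per length, Vamp8 was 1.92 ± 0.266 times Vamp2 in the WT libraries and 1.81 ± 0.287 times in the DKO libraries (SD, n = 3; exact permutation p = 0.6, adjusted 0.8). Vamp3, a widely expressed relative, stood at 149 ± 12.6 normalized counts per kilobase in the WT libraries and 150.2 ± 24.8 in the DKO libraries (SD, n = 3).

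On the target membrane, the groups overlapped in the syntaxin and in the protein that binds it, and not in Snap23. Stx3 (chromosome 19, 11775118 to 11819403, minus strand), the apical syntaxin, had 427, 379.5 and 437 normalized counts in the libraries WT 1, 4 and 5, and 441, 424 and 336 in DKO 1, 4 and 5. DKO 5 was the lowest of the 6 and the other libraries were mixed (log2 fold change -0.048 ± 0.15 SE and adjusted p = 0.950 by DESeq2, 95% interval from -21.2% to 18.8%). Stxbp2 (chromosome 8, 3630955 to 3643644, plus strand) had normalized counts of 953, 1052 and 1006 in the WT libraries and 968, 1009.7 and 1085 in the DKO libraries. Both groups lay within a narrow band (log2 fold change 0.024 ± 0.11 SE and adjusted p = 0.968 by DESeq2), and its interval ran from -11.9% to 17.3%.

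Snap23 (chromosome 2, 120567671 to 120601255, plus strand), which supplies the paired SNARE helices at the plasma membrane of non-neuronal cells, had 897, 937 and 1000.5 normalized counts in the libraries WT 1, 4 and 5, and 846, 816 and 879.7 in DKO 1, 4 and 5. Every DKO library lay below every WT library, WT 1 and DKO 5 being the closest. The difference of -10.3% (95% interval from -22.4% to 3.54%) did not pass the threshold (log2 fold change -0.16 ± 0.11 SE and adjusted p = 0.586 by DESeq2). It did with total counts as size factors (-0.39, DESeq2 adjusted p = 0.0295). Snap25, the neuronal relative, had normalized counts of 13.9, 18.6 and 13.4 in the WT libraries and 19.9, 44.9 and 1.15 in the DKO libraries, the highest and the lowest of the 6 both being DKO libraries.

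**Figure D3:**
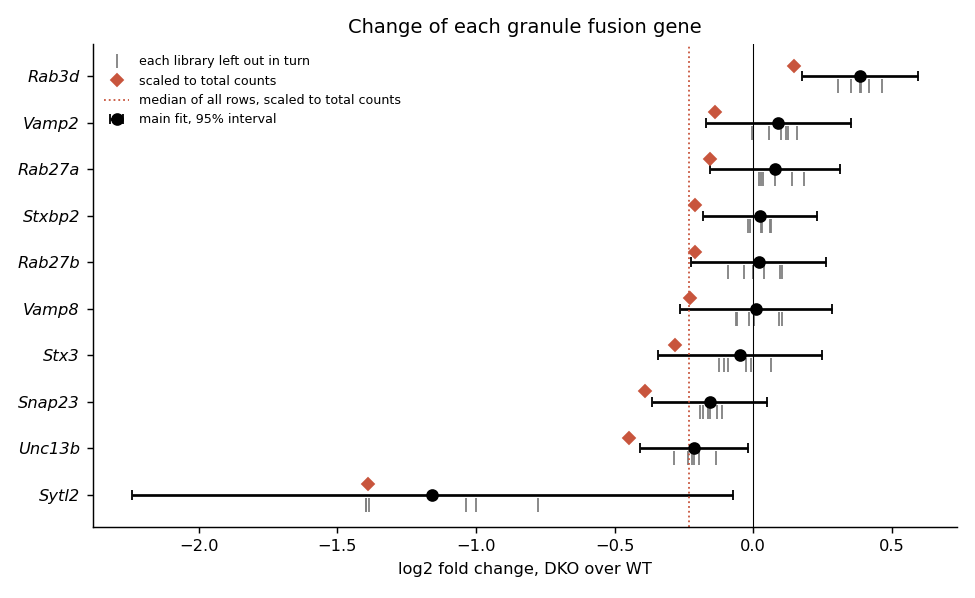
Log2 fold change (DKO over WT, horizontal axis) of each gene with its 95% interval in black, the values with each library left out as grey ticks, and the value scaled to total counts as red diamonds. The dotted line is the median of all rows on the total count scale (-0.23), near which most diamonds lie, while Rab3d stays to its right and Unc13b, Snap23 and Sytl2 to its left.

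Per kilobase of exon, the levels of the 10 genes gave the same order in both groups. On this scale the WT means were 673 ± 30.4 for Rab3d, 581 ± 16.1 for Unc13b, 379 ± 44.6 for Rab27a, 265 ± 27.3 for Vamp8 and 241 ± 11.9 for Stxbp2. Below them came Rab27b (228 ± 21.3), Snap23 (220.1 ± 12.2), Vamp2 (139 ± 16.5), Stx3 (72.6 ± 5.36) and Sytl2 (2.11 ± 0.675), all in normalized counts per kilobase (SD, n = 3). The libraries of neighbours in this order did not overlap, except that Vamp8 overlapped Stxbp2, Stxbp2 overlapped Rab27b and Rab27b overlapped Snap23, in both groups. Rab3d stood 1.16 times as high as Unc13b in the WT libraries and 1.76 times in the DKO libraries. The order rests on the length used. By the longest annotated transcript, Unc13b came first in the WT libraries (896 against 727 for Rab3d) and Rab3d first in the DKO libraries (949.7 against 772). Vamp8 moved below Rab27b, Stxbp2 and Snap23 in both groups (295 in the WT libraries, against 353, 345 and 346), and Stxbp2 and Snap23 changed places between the groups.

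**Figure D4:**
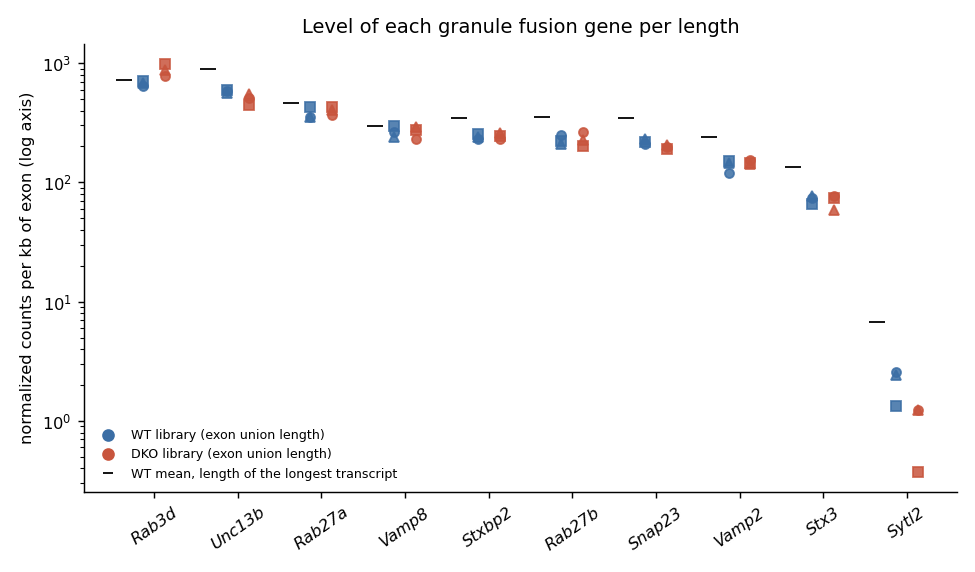
Normalized counts per kilobase of exon (log axis) for each gene in the WT (blue) and DKO (red) libraries, ordered by the WT mean, with the WT mean by the longest transcript as a black dash. Rab3d and Unc13b lead, 4 genes share the middle, and Sytl2 lies 34.4 times below Stx3 in the WT libraries.

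The rest of the pathway was read from 8 lists of 111 other genes, of which 106 were tested. Of these 4 rose, 2 fell and 100 did not pass the threshold, or 5.66% called beside 2.90% of all rows. Their median log2 fold change was 0.083. None of the 6 calls held under edgeR or limma-voom, which called 0 of these genes. Their unadjusted p was under 0.05 for 19 and 20 genes, and the share of all rows in those tests was not counted. Of the 6 calls, 0 held in all 6 fits that left out 1 library. With total counts as size factors 9 were called, 1 higher (Syt6) and 8 lower, 3 of them among the 6 (Syt6, Sytl5 and Myo5a), and by construction small positive log2 fold changes turn negative on that scale.

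Among the Rab GTPases and their regulators, 1 of 18 rose. Rab26, a granule GTPase of secretory cells, had normalized counts of 175, 205 and 161 in the WT libraries and 231, 285 and 317 in the DKO libraries (log2 fold change 0.62 ± 0.19 SE and adjusted p = 0.0317 by DESeq2), and the groups did not overlap. Its DESeq2 adjusted p was 0.309 without WT 5, 0.165 with total counts as size factors and 0.184 with the replicate block. Rab8b, a GTPase of vesicle transport to the cell surface, had normalized counts of 309, 236 and 339 in the WT libraries and 229, 227 and 209 in the DKO libraries. Its groups did not overlap and it did not pass (log2 fold change -0.41 ± 0.18 SE and adjusted p = 0.230 by DESeq2), while with total counts as size factors it was called lower. Bhlha15 itself had normalized counts of 5714, 6519 and 5899 in the WT libraries and 6782, 6796 and 6767 in the DKO libraries. It did not pass (log2 fold change 0.17 ± 0.087 SE and adjusted p = 0.382 by DESeq2), and its groups did not overlap, as in 20.3% of all rows tested. The part of Bhlha15 in the values of Rab3d and Rab26 was not tested. Rab3a, the form of neurons and endocrine cells, had normalized counts of 489, 466 and 416 in the WT libraries and 343, 513 and 303 in the DKO libraries (log2 fold change -0.24 ± 0.19 SE and adjusted p = 0.684 by DESeq2). Per kilobase Rab3a stood at 205 ± 16.8 and Rab26 at 63.3 ± 7.92 normalized counts in the WT libraries (SD, n = 3), below the 673 ± 30.4 of Rab3d. Rab3b was at 0 to 11 counts a library, where a difference was not detectable at this depth.

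The effectors of Rab27 and Rab3 held 3 of the 6 calls, with 1 of 13 higher and 2 lower. Besides Sytl3 and Sytl5, Myo5a, a myosin motor that carries granules along actin, fell, with normalized counts of 449, 328 and 531 in the WT libraries and 324, 291 and 209.8 in the DKO libraries (log2 fold change -0.67 ± 0.21 SE and adjusted p = 0.0463 by DESeq2). WT 4 and DKO 1 nearly met, and without WT 5 its adjusted p was 0.509. Of 6 macrophage markers 4 fell, beside 1.88% of all rows tested. The summed normalized counts of the 6 markers, 2618, 1631 and 2674 in the WT libraries and 1579, 1362 and 1131 in the DKO libraries, ranked the 6 libraries in the same order as Myo5a. The part of macrophages in the fall of Myo5a was not tested. Myo5c, the form of exocrine cells, had 4758 ± 284 in WT and 4640.2 ± 225 normalized counts in DKO (SD, n = 3), with a log2 fold change of -0.036. Mlph, the linker between Rab27a and Myo5a, ranged from 2304 to 4162 in the WT libraries, and its DKO libraries lay within that range.

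Of 14 synaptotagmins tested, a family that includes calcium sensors of exocytosis, 1 rose and 0 fell. Syt6 had 46, 35 and 36 counts in WT 1, 4 and 5 and 84, 86 and 71 in DKO 1, 4 and 5 (log2 fold change 1.17 ± 0.29 SE and adjusted p = 0.00569 by DESeq2), the largest fold among the called genes of these lists, at a low level of 6.41 ± 1.23 normalized counts per kilobase in WT (SD, n = 3). Its adjusted p ran up to 0.0871 with 1 library left out. Syt7, a sensor of slow calcium-triggered release, had normalized counts of 14.8, 5.87 and 72.5 in the WT libraries and 20.9, 8.36 and 11.5 in the DKO libraries, and 1 library, WT 5, held most of its counts. Syt3 was higher in every DKO library without passing (log2 fold change 0.38 ± 0.20 SE and adjusted p = 0.390 by DESeq2).

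Of 14 granule membrane and maturation genes, Slc17a9, the vesicular carrier of nucleotides, rose, with normalized counts of 271, 303 and 249 in the WT libraries and 352, 413 and 383 in the DKO libraries (log2 fold change 0.48 ± 0.15 SE and adjusted p = 0.0448 by DESeq2). With total counts as size factors its adjusted p was 0.316. Scamp1 and Scamp3, carrier membrane proteins, were higher in every DKO library without passing (log2 fold changes 0.20 and 0.33, DESeq2 adjusted p = 0.304 and 0.308). The neuroendocrine granule genes Scg2, Chgb, Chga and Sv2a were each highest in DKO 4 and lowest in DKO 5. Scg2 had 45, 46 and 46 counts in WT 1, 4 and 5 and 43, 169 and 2 in DKO 1, 4 and 5, and Chgb had 18, 17 and 16 and then 28, 65 and 2. Chga and Sv2a had 42 and 47 counts over all 6 libraries.

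In the complexes around the SNAREs no gene passed the threshold. None of the 9 exocyst subunits, which tether vesicles to the membrane, passed the threshold by DESeq2, 0 had an unadjusted p under 0.05, and their log2 fold changes ran from -0.091 to 0.15. The 4 genes that pull spent SNAREs apart (Nsf, Napa, Napb and Napg) ran from 0.081 to 0.15, also with 0 calls and 0 unadjusted p-values under 0.05. Of 18 other SNAREs 0 were called and 3 had an unadjusted p under 0.05. These were Stx6 (0.22) of the Golgi, Stx7 (-0.20) of the endosome and Stx11 (-1.42) of blood cells. Stx4a, the basolateral plasma membrane syntaxin, had normalized counts of 147, 96.8 and 152 in the WT libraries and 155, 153 and 164 in the DKO libraries (log2 fold change 0.25 ± 0.22 SE and adjusted p = 0.739 by DESeq2). Stx2 and Snap29 overlapped between the groups, with log2 fold changes of -0.18 and -0.16. Of 16 SNARE binding and priming genes tested 0 were called and 2 had an unadjusted p under 0.05, Unc13d and Doc2b (-0.69). Stxbp3, a relative of Stxbp2, had a log2 fold change of -0.20 (DESeq2 adjusted p = 0.604).

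**Figure D5:**
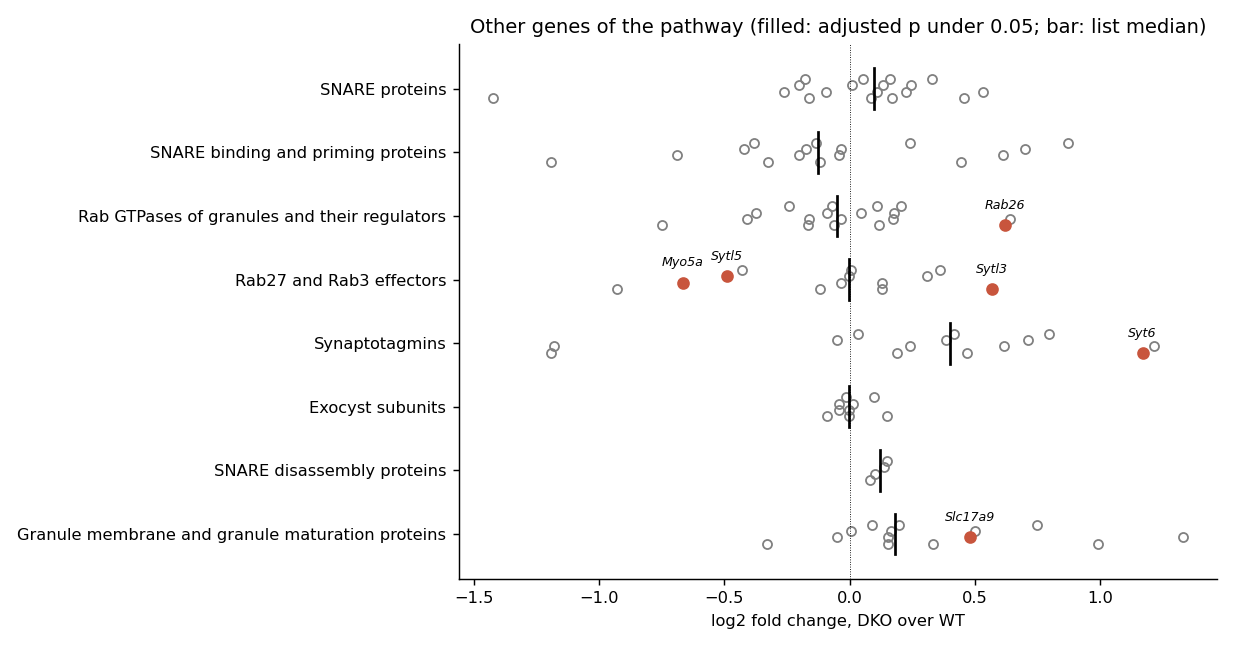
Log2 fold change (DKO over WT, horizontal axis) of each tested gene of the 8 lists, filled red where the DESeq2 adjusted p was under 0.05, with the list median as a bar. Rab26, Sytl3, Syt6 and Slc17a9 are filled on the right and Sytl5 and Myo5a on the left, and the exocyst and disassembly genes cluster near 0.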

How the data were processed

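Nextera XT unstranded libraries of 6 female submandibular glands (3 WT, 3 DKO) were sequenced on a HiSeq2500. The submitters' processing notes name STAR 2.5.2a, DESeq2, edgeR and limma, and the builds GRCm38, mm10 and GRCh38, without roles. The counting tool and the annotation were not given in the sources used here. For each gene symbol the authors deposited raw counts, in 43280 rows, all named and none repeated. A filtered table of counts and a table of scaled CPM were not used.

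The 18606 rows whose counts summed to 10 or more were tested with DESeq2 1.42.0 in R 4.3.3 (median-of-ratios size factors from 0.867 to 1.12, two-sided Wald test, unshrunken fold changes, independent filter at 0.1, Benjamini-Hochberg adjustment over all rows, threshold 0.05), the tool the study names. Intervals are the estimate ± 1.96 SE. Alternatives were edgeR 4.0.16, limma-voom 3.58.1, other size factors and filters, a block for the replicate number and leaving out single libraries. The fits were also run on simulated data. All changes planted there were larger than that of Rab3d, so the simulation does not test calls of that size. The members and lists were chosen with earlier results of these data known. All members were named, and of the other lists the called genes, the close relatives of members and up to 3 genes of lowest p per list, except 1 gene that is not reported here. Bhlha15, Mlph, Myo5c, Scg2, Chgb, Chga and Sv2a fall outside this rule and were chosen after their values were seen. The alternative background of abundant rows was added after the data were seen. Stxbp3 was matched to the row Stxbp3a by RefSeq synonym, and Vamp7 matched no row. The neutrophil list had too few counts to test, and lists of other duct, nerve, platelet and endothelial cells held 0 calls. Of the mast cell list Kit fell. Of the B and plasma cell and macrophage lists 2 and 4 genes fell, beside 1.88% of all rows tested.

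Positions and exon lengths are those of GENCODE M21 on GRCm38 for the same symbol. By that annotation only Rab27a shares exon bases with another gene, a pseudogene with 23 counts in all. Labels call the glands separate samples, and no source ties each to 1 animal. The DESeq2 p-values set the group difference against the variation between these samples, estimated in part from other genes. Whether this is variation between animals is not stated.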

Additional observations from a re-analysis of the deposited data

How the results depend on the processing

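Of the 10 members, edgeR and limma-voom called 0 (with unadjusted p under 0.05 for 2 and 3), total counts as size factors called 2 (Snap23 and Unc13b, both lower, not Rab3d), and fits without 1 library called 0 to 1. Of the other pathway genes edgeR, limma-voom and the replicate block called 0 (block: unadjusted p under 0.05 for 10). Fits without 1 library called 0 to 8, where the absence of WT 5 or DKO 5 gave 0. For edgeR, limma-voom and the block, the share of all rows with an unadjusted p under 0.05 was not counted. Over all rows the number called was 10 under edgeR, 7 under limma-voom, 1469 with total counts, 343 with the replicate block, beside 539, and 149 to 817 without 1 library. Same-numbered libraries did not deviate together (correlations of deviations from -0.26 to -0.024 over 11489 genes), so the numbers were not taken as pairs, and Rab3d kept its call in the block (log2 fold change 0.38, adjusted p = 0.0414). Total counts turned the sign of Rab27a (-0.15), Rab27b (-0.21), Vamp2 (-0.14), Vamp8 (-0.23) and Stxbp2 (-0.21), which moved with the median of all rows. Without 1 library the log2 fold change of Rab27b ran from -0.090 to 0.10, of Vamp2 from -0.00304 to 0.16, of Vamp8 from -0.061 to 0.10, of Stx3 from -0.12 to 0.064 and of Stxbp2 from -0.020 to 0.063, none of them called. The WT ratio by the longest transcript or by raw counts was 0.768 or 1.67 for Rab27b over Rab27a, 1.24 or 1.17 for Vamp8 over Vamp2 and 2.08 or 1.17 for Rab3d over Rab27b. Without 1 library the log2 difference of the ratio (DKO minus WT) ran from -0.23 to 0.076 for Rab27b over Rab27a, -0.19 to 0.045 for Vamp8 over Vamp2 and 0.20 to 0.55 for Rab3d over Rab27b. The causes of these shifts were not tested. Depth limits Sytl2, which rests on 131 counts over the 6 libraries, more than the other members, which have at least 2469.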

Other observations

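Several genes of granule release are also used by cytotoxic lymphocytes. Stx11, the syntaxin of lytic granules, had 22, 13 and 29 counts in WT 1, 4 and 5 and 12, 5 and 5 in DKO 1, 4 and 5, with no overlap after normalization (log2 fold change -1.42 ± 0.64 SE and adjusted p = 0.251 by DESeq2). Prf1, which encodes perforin, had normalized counts of 19.8, 5.87 and 22.4 in the WT libraries 1, 4 and 5, against 5.69, 4.18 and 8.07 in the DKO libraries. Gzmb, which encodes granzyme B, had normalized counts of 27.7, 16.6 and 27.8 in the WT libraries 1, 4 and 5, against 16.1, 21.9 and 12.7 in the DKO libraries, with overlap. Cd8a, which marks cytotoxic T cells, had normalized counts of 37.6, 9.78 and 22.4 in the WT libraries 1, 4 and 5, against 0, 0 and 0 in the DKO libraries (DESeq2 adjusted p = 1.29e-04). Unc13d, Stx11, Prf1 and Cd8a were each higher in WT 1 and WT 5 than in WT 4. Rab27a, Stxbp2 and Vamp8, which lymphocytes use too, had at least 537 normalized counts in every library. The part of these cells in any member's values was not tested.

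Kit, the receptor counted here among mast cell markers and also found on other cells of the gland, fell, with normalized counts of 920.3, 778 and 803 in the WT libraries 1, 4 and 5, against 475, 567 and 581 in the DKO libraries (DESeq2 adjusted p = 4.32e-04). The mast cell granule genes Cpa3, Mcpt4, Tpsb2 and Cma1 were at or below 14.3 in every library.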
